A study of Mus musculus with 10 samples.

Results

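The 10 members of a set of iron storage, iron transport and heme breakdown genes were examined in RNA of microglia from mice given GW2580 or vehicle. The 10 genes, out of 46152 counted, were Fth1, Ftl1, Slc40a1, Hmox1, Tfrc, Slc11a1, Slc11a2, Ireb2, Aco1 and Cp, chosen by symbol and matched to the gene identifiers of the count tables through the RefSeq gene table of GRCm38. All 10 had counts in every library, and all 10 passed the filter of more than 1 CPM (the count scaled to a common library size) in at least 3 libraries. The filter used library sizes alone, and the CPM values given below were scaled with TMM factors as well.

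The study asked how an orally given inhibitor of the CSF1 receptor alters microglia of healthy mice. Male and female C57BL/6J mice, 8 to 12 weeks old by the study's methods, were gavaged for 8 days. The Vehicle group (5 mice, 2 male and 3 female) received 0.1% Tween 80 with 0.5% Hydroxymethyl Propyl-cellulose, and the GW2580 group (5 mice, 2 male and 3 female) received GW2580 at 80 mg/kg/d in that same vehicle. Brains were dissociated with Accutase, cells were passed over Percoll and selected with CD11b magnetic beads, and each mouse gave 1 library made with SMART-Seq v4, named here by its group and number. CD11b is also present on other myeloid cells, so the selection does not by itself separate microglia from monocytes and granulocytes.

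Cells take up transferrin-bound iron through the transferrin receptor (Tfrc), move ferrous iron across membranes through the divalent metal transporters (Slc11a2, and Slc11a1 in the phagosomes of macrophages), store it inside ferritin shells built of heavy (Fth1) and light (Ftl1) subunits, and export it through ferroportin (Slc40a1) with the help of the ferroxidase ceruloplasmin (Cp). Heme oxygenase 1 (Hmox1) releases iron from heme. The iron regulatory proteins encoded by Aco1 and Ireb2 bind hairpins called iron-responsive elements when iron is scarce, which blocks translation of messages that carry the hairpin at the 5′ end and protects messages that carry it at the 3′ end. Microglia, like other macrophages, are known for high ferritin levels.

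These hairpins are shown because the iron regulatory proteins act through them, in opposite ways at the 5′ and the 3′ end. A pattern of an unpaired C, 5 bases, the loop CAGTGN and 5 bases able to pair with the first 5 (the last loop base being any but G, and G-U pairs allowed) was searched on the sense strand of GENCODE M21 transcripts of GRCm38. Within the first 200 bases of the 5′ untranslated region (UTR) it was present in 3 of 10 members, Fth1, Ftl1 and Slc40a1, and in 15 of 20504 genes searched (0.0732%). Each match lay within 1 exon, and capitals mark the loop.
Fth1, 5′ UTR, chr19:9982732-9982760, + strand: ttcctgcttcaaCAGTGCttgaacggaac
Ftl1, 5′ UTR, chr7:45459779-45459807, - strand: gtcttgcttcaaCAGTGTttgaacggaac
Slc40a1, 5′ UTR, chr1:45925465-45925493, - strand: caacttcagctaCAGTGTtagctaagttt

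Within 2000 bases after the stop codon the pattern was present in 1 of 10 members, Tfrc, and in 78 of 20850 genes (0.374%). Tfrc held 4 copies, all on the + strand of chromosome 16 in its 3′ UTR, again with the loop in capitals.
Tfrc copy 1, chr16:32631219-32631247: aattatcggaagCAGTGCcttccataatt
Tfrc copy 2, chr16:32631598-32631626: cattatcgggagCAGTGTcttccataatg
Tfrc copy 3, chr16:32631663-32631691: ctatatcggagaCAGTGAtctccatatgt
Tfrc copy 4, chr16:32631710-32631738: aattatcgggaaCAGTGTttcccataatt
A match describes these letters only, and it does not show binding in these cells. The lack of a match does not show that a gene lacks such a hairpin. The search covered only this pattern, these windows and the annotated transcripts.

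The libraries held 12550418 to 26079343 fragments assigned to genes. Of the uniquely mapped fragments, 47.7% to 59.8% lay on no exon in the vehicle libraries. In GW2580 1 to 5 this percentage was 68.0%, 56.1%, 47.1%, 70.8% and 64.7%. The TMM factors ran from 0.856 to 0.975 with vehicle and from 0.691 to 1.61 with GW2580. The microglial marker list (10 genes) summed to 17413 to 30199 CPM with vehicle and 21554 to 70888 CPM with GW2580, the highest in GW2580 3. Libraries stood apart in both groups. The first principal component (47.1% of the variance) placed Vehicle 5 on the side of GW2580 1, GW2580 3 and GW2580 4, and placed GW2580 5 (-45.8) with the other 4 vehicle libraries (-40.5 to -35.0), with GW2580 2 (-5.20) in between. Vehicle 5 held 27631 CPM of 6 choroid plexus markers, led by Ttr, against 1232 to 2982 CPM in the other vehicle libraries and 187 to 3551 CPM with GW2580. Vehicle 2 held 17906 CPM of 8 oligodendrocyte markers, led by Mbp, against 163 to 4358 CPM in the other vehicle libraries and 178 to 1779 CPM with GW2580. Monocyte and granulocyte markers (9 genes, led by Ngp) ranged from 524 to 24211 CPM with vehicle and from 500 to 11034 CPM with GW2580, so other myeloid cells were present in varying amounts. Erythroid markers (7 genes, led by Hba-a1) reached 2144 CPM in Vehicle 5 and at most 396 CPM elsewhere. Astrocyte markers (8 genes, led by Aldoc) reached 3057 CPM in Vehicle 2, neuronal markers (8 genes, led by Snap25) 492 CPM in Vehicle 2, endothelial markers (8 genes, led by Slc2a1, with Cldn5 at 0 in all libraries) 246 CPM in Vehicle 5, and border macrophage markers (7 genes, led by F13a1) 281 CPM in GW2580 3.

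With GW2580, 2 of the 10 members passed the study's thresholds, the heavy ferritin subunit Fth1 (lower) and the exporter Slc40a1 (above every vehicle library in 4 of 5 GW2580 libraries and below every one in GW2580 5), and 0 passed adjustment over all genes. Following the study's methods, calls required more than a 2-fold difference together with an unadjusted p below 0.05. These calls are 1 of 10 members in each direction, against 6.7% of the 28419 genes tested called lower and 4.01% called higher, so the share of members called was near that of all genes. At an unadjusted p under 0.05 and any fold, 1 member was lower and 2 (Slc40a1 and Tfrc) were higher, against 8.12% and 6.61% of all genes. With Benjamini-Hochberg adjustment over all genes, 0 members and 0 of 28419 genes passed an adjusted p of 0.05 by edgeR's quasi-likelihood test, where 3 members and 4186 genes fell below 0.05 before adjustment. By DESeq2 run on all genes, Fth1 passed (adjusted p = 0.0496), and it did not by DESeq2 on the filtered genes (adjusted p = 0.0529). In all, 246 of 43091 genes passed by DESeq2 run on all genes, and 177 of 27592 by DESeq2 on the filtered genes. Over all genes, 1141 were called higher and 1905 lower, and with library sizes alone in place of TMM scaling the split was 2123 and 875, with upper quartile scaling 1196 and 1230. The median log2 fold change was 0.35 over the 10 members and -0.03 over all genes tested.

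**Figure D1:**
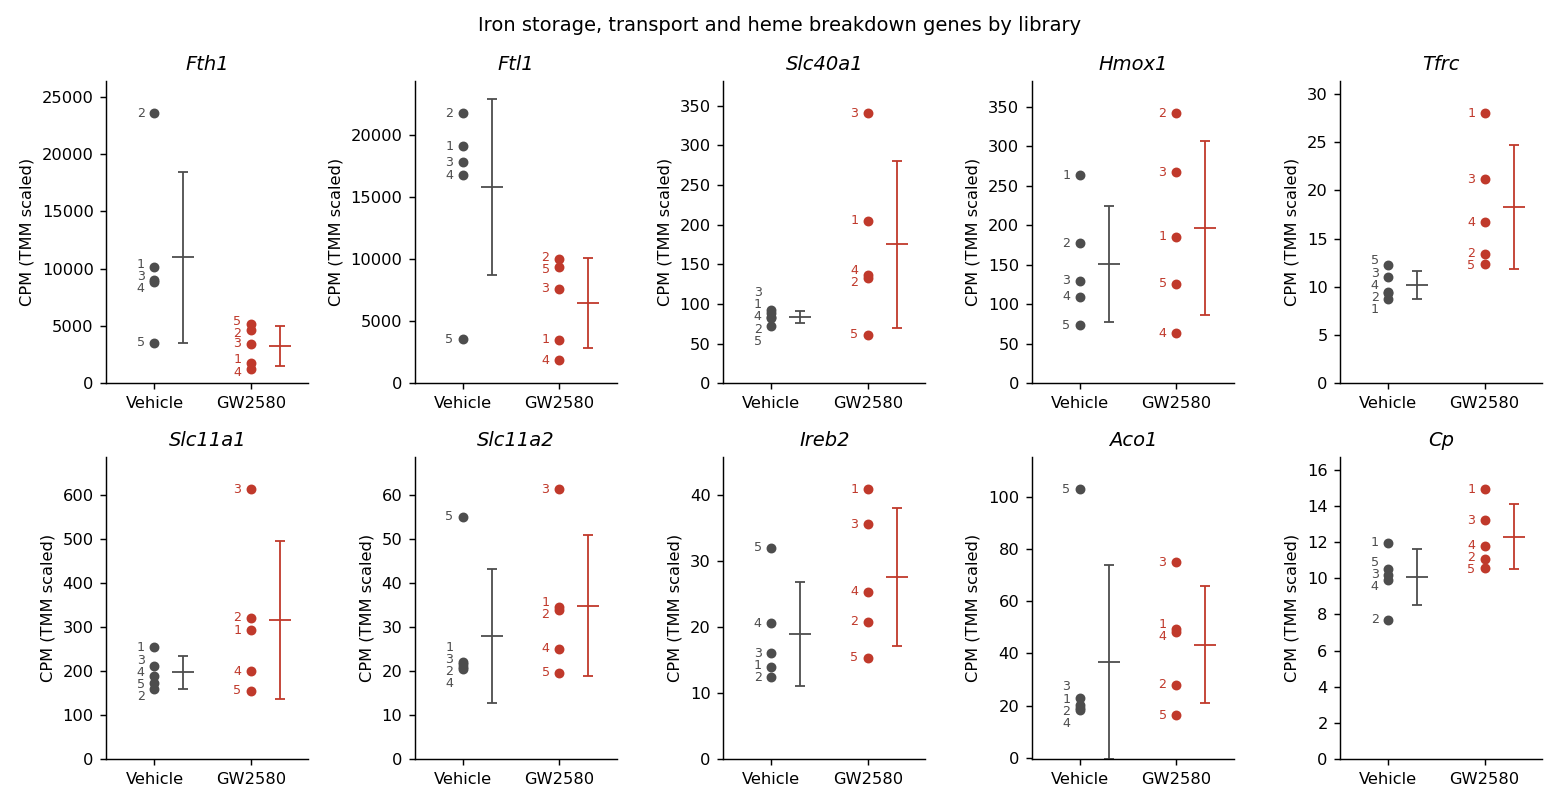
CPM after TMM scaling of each member (y axis, linear from about 0, 1 panel per gene) in the 5 vehicle and 5 GW2580 libraries, numbered as in the labels, with the mean and SD of each group beside the points. Tfrc is the 1 member whose groups do not overlap, Vehicle 5 lies apart from the other vehicle libraries for Ftl1, Slc11a2 and Aco1, and GW2580 5 lies within or below the vehicle range for the other 9 members.

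Ferritin messages were among the most abundant in these libraries. Fth1, which encodes the subunit that oxidises ferrous iron for storage, lies at chr19:9980600-9985111. It stood at 10171, 23554, 8998, 8808 and 3521 CPM in Vehicle 1 to 5. It stood at 1791, 4628, 3464, 1221 and 5169 CPM in GW2580 1 to 5. Vehicle 2 was the highest and Vehicle 5 the lowest of the vehicle libraries, and 3 of the 5 GW2580 libraries lay below all vehicle libraries, so the groups overlapped through Vehicle 5. The vehicle mean was 11010 ± 7467 CPM and the GW2580 mean 3254 ± 1723 CPM (SD, n = 5 each), a log2 fold change of -1.76 ± 0.60 (SE) or 0.296 of the vehicle level (p = 0.0113, adjusted p = 0.280 by edgeR's quasi-likelihood test, and p = 0.0238 by the two-sided exact permutation test of log2 CPM, whose smallest possible p is 0.00794). Without Vehicle 2, the library high in oligodendrocyte markers, the log2 fold change of Fth1 was -1.28 (edgeR unadjusted p = 0.0482), and without Vehicle 5 it was -1.98 (edgeR unadjusted p = 0.00578). GW2580 1 and GW2580 4, the lowest in Fth1, had the highest percentages of fragments on no exon (68.0% and 70.8%). With that percentage added to the model, the log2 fold change was -1.57 (edgeR unadjusted p = 0.0282). Its part in the low Fth1 of these libraries was not tested.

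Ftl1, which encodes the subunit that aids formation of the iron core, lies at chr7:45457944-45459886. Its level was 19093, 21749, 17827, 16749 and 3560 CPM in Vehicle 1 to 5. In GW2580 1 to 5 it was 3512, 9985, 7598, 1861 and 9347 CPM. Every GW2580 library lay below Vehicle 1 to 4, and 2 of the 5 also lay below Vehicle 5. The means were 15796 ± 7090 and 6461 ± 3602 CPM (SD, n = 5 each), and the log2 fold change of -1.29 ± 0.62 did not pass (p = 0.0572, adjusted p = 0.351 by edgeR's quasi-likelihood test, exact permutation p = 0.111). Ftl1 was past the thresholds in 10 of 27 alternatives, among them DESeq2, edgeR's likelihood ratio and exact tests, limma-voom and library sizes alone, at log2 fold changes of -1.19 to -1.33 for these. Without Vehicle 5, the log2 fold change was -1.55 (edgeR unadjusted p = 0.0261), also past the thresholds. The choroid plexus and erythroid markers that set Vehicle 5 apart are given above, and their part in its low ferritin was not tested.

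Both ferritin genes together took 2.83%, 3.96%, 2.56%, 2.48% and 0.604% of the assigned fragments in Vehicle 1 to 5. They took 0.651%, 1.40%, 0.763%, 0.492% and 1.59% in GW2580 1 to 5. By count, Ftl1 was between the 2nd and the 4th most abundant gene in Vehicle 1 to 4, 17th in Vehicle 5 and between 6th and 23rd with GW2580. Per base of gene length, Ftl1 exceeded Fth1 in all 10 libraries. The ratio of Fth1 to Ftl1 per base was 0.342, 0.695, 0.324, 0.338 and 0.635 in Vehicle 1 to 5 and 0.327, 0.298, 0.293, 0.421 and 0.355 in GW2580 1 to 5. The log2 ratio of counts differed by -0.39 between the groups (vehicle -0.54 ± 0.55, GW2580 -0.94 ± 0.21, SD, n = 5 each), which was within the spread of libraries (exact permutation p = 0.222). The higher ratios were those of Vehicle 2 and Vehicle 5, and without both the difference was 0.01 (exact permutation p = 1). The 3 ferritin light chain pseudogenes Ftl1-ps1, Ftl1-ps2 and Ftl2-ps had 16 to 451 counts per library. Fragments that align equally well to a ferritin gene and a pseudogene were not counted, so the ferritin counts are uncertain to that extent.

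Levels with GW2580 moved with gene length in these libraries. Among protein-coding genes of mean CPM 20 or more, the median log2 fold change was -1.01 for 363 genes under 1000 bases, the class of Ftl1 (970 bases), and 31.7% of them were called lower. It was -0.54 for 1145 genes of 1000 to 2000 bases, the class of Fth1 (1511 bases) and Hmox1 (1576 bases), with quartiles of -0.89 and -0.23 and 17.6% called lower. For the 3 classes above 2000 bases, which hold the other 7 members, the medians were 0.05, 0.13 and 0.13. Fth1 lay below the lower quartile of its class, and Ftl1 lay below the lower quartile of its own class, -1.22, by less than its standard error. The part of length in the ferritin results was not tested.

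**Figure D2:**
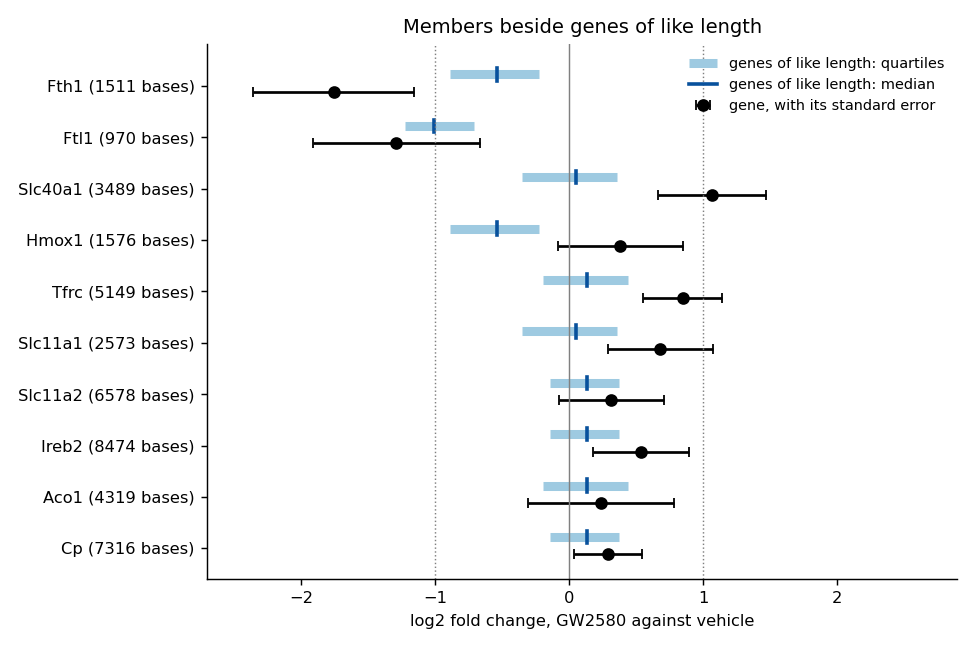
Log2 fold change of each member between GW2580 and vehicle (black points, bars are standard errors, gene length in parentheses) above which the median and quartiles of protein-coding genes of like length are drawn in blue, with dotted lines at 2-fold. Fth1 at -1.76 lies below the lower quartile of its class, Ftl1 at -1.29 lies near the lower quartile of its class, and Slc40a1, Tfrc, Slc11a1, Ireb2 and Hmox1 lie above the upper quartiles of theirs.

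Slc40a1 encodes ferroportin, the known exporter of iron from cells, and lies at chr1:45908070-45926532. The vehicle libraries lay close together at 88.0, 82.5, 91.7, 83.9 and 71.6 CPM. The GW2580 libraries spread over 205, 132, 340, 137 and 61.1 CPM. Of these, 4 lay above all vehicle libraries and GW2580 5 lay below all of them. The coefficient of variation was 9.07% among vehicle libraries and 60.2% among GW2580 libraries, and the log2 fold change was 1.07 ± 0.40 (2.10-fold, p = 0.0192, adjusted p = 0.280 by edgeR's quasi-likelihood test, exact permutation p = 0.0476). Without GW2580 3, the library highest in microglial markers and in border macrophage markers (281 CPM against 54.2 to 150 CPM in the other GW2580 libraries), the log2 fold change was 0.68 (edgeR unadjusted p = 0.0628), and the call was lost. With limma-voom, the log2 fold change was 0.84, under the fold threshold. The part of those markers in the result was not tested. Cp, the ferroxidase that works beside ferroportin, stood at 7.70 to 11.98 CPM with vehicle and 10.6 to 14.9 CPM with GW2580, with 2 of the 5 GW2580 libraries above all vehicle libraries (log2 fold change 0.29 ± 0.25, adjusted p = 0.596 by edgeR's quasi-likelihood test, exact permutation p = 0.0635).

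Tfrc, the receptor for transferrin-bound iron, lies at chr16:32608896-32632794. It stood at 8.73, 9.38, 11.03, 9.42 and 12.30 CPM in Vehicle 1 to 5. It stood at 28.0, 13.4, 21.2, 16.7 and 12.32 CPM in GW2580 1 to 5. All 5 GW2580 libraries lay above all 5 vehicle libraries, although GW2580 5 and Vehicle 5 differed by far less than the spread within either group. Of all genes tested, 2.04% had groups that did not overlap with GW2580 higher and 0.985% with GW2580 lower, and among the members Tfrc was the 1 such gene. The log2 fold change was 0.85 ± 0.30 (1.80-fold, under the fold threshold, p = 0.0124, adjusted p = 0.280 by edgeR's quasi-likelihood test), and the exact permutation p of 0.00794 is the smallest this design allows. These values rest on 121 to 545 counts per library, fewer in all than for any other member but Cp.

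The ratio of the receptor to the heavy ferritin subunit was higher with GW2580. Per base, the ratio of Tfrc to Fth1 was 0.000252, 0.000117, 0.000360, 0.000314 and 0.00103 in Vehicle 1 to 5. It was 0.00459, 0.000848, 0.00179, 0.00402 and 0.000700 in GW2580 1 to 5. The 3 highest GW2580 libraries lay above all vehicle libraries, and GW2580 2 and GW2580 5 lay below Vehicle 5 and above the other 4. The log2 ratio of counts averaged -9.82 ± 1.13 in the vehicle libraries and -7.33 ± 1.24 in the GW2580 libraries (SD, n = 5 each), a difference of 2.49 or 5.62-fold (exact permutation p = 0.0238). Without GW2580 3 and GW2580 4 the difference was 2.11 (exact permutation p = 0.107), short of the threshold. Library scaling cancels in this ratio. Gene length does not, since Tfrc (5149 bases) falls in a class with a median of 0.13 and Fth1 in a class with a median of -0.54.

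**Figure D3:**
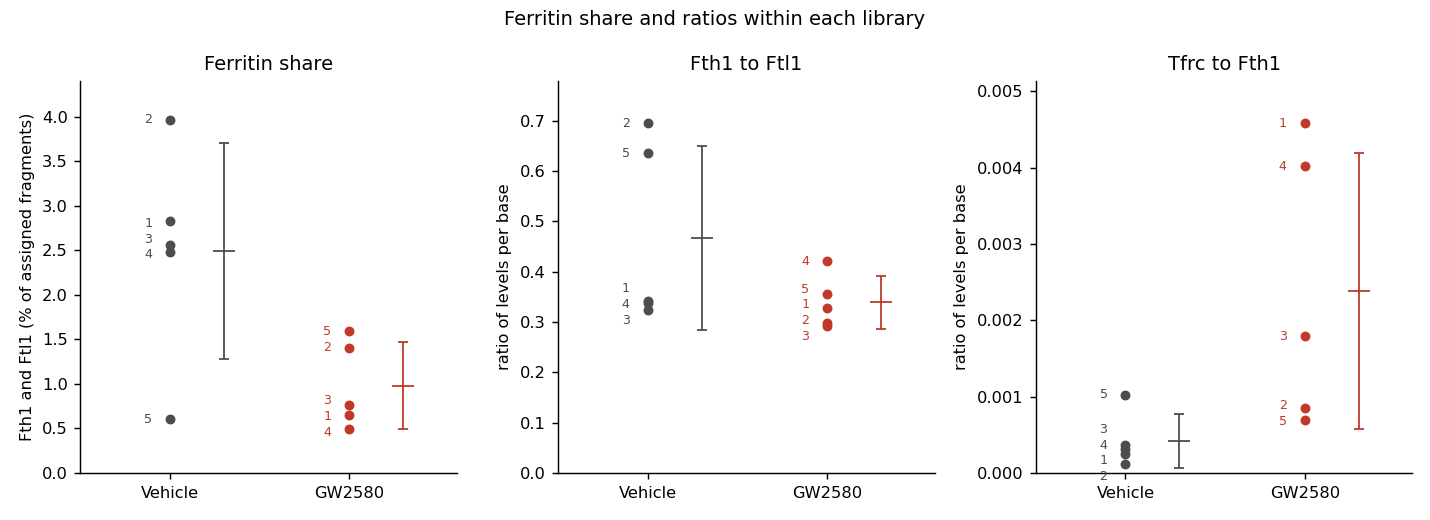
The percentage of assigned fragments on Fth1 and Ftl1 (left), the per-base ratio of Fth1 to Ftl1 (middle) and the per-base ratio of Tfrc to Fth1 (right) in each numbered library, with group means and SD and linear y axes from 0. The ferritin share was 2.48% to 3.96% in Vehicle 1 to 4 and 0.604% in Vehicle 5 against 0.492% to 1.59% with GW2580, and the Tfrc to Fth1 ratio reached 0.00459 with GW2580 against at most 0.00103 with vehicle.

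The divalent metal transporters did not pass the test. Slc11a1, the transporter of macrophage phagosomes, stood at 159 to 254 CPM with vehicle (median 188) and 155 to 613 CPM with GW2580 (median 293). It was highest in GW2580 3, and 3 of the 5 GW2580 libraries lay above all vehicle libraries (log2 fold change 0.68 ± 0.39, adjusted p = 0.418 by edgeR's quasi-likelihood test, exact permutation p = 0.175). Slc11a2, the transporter of endosomes and of the gut surface, stood at 20.4 to 22.0 CPM in Vehicle 1 to 4 and 55.2 CPM in Vehicle 5. With GW2580 it stood at 34.6, 33.9, 61.4, 25.1 and 19.6 CPM in libraries 1 to 5, of which 1 lay above Vehicle 5 and 4 lay above Vehicle 1 to 4 (log2 fold change 0.32 ± 0.39, adjusted p = 0.720 by edgeR's quasi-likelihood test, exact permutation p = 0.397). Without Vehicle 5 the log2 fold change of Slc11a2 was 0.72.

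Hmox1, the inducible enzyme that opens the heme ring, stood at 263, 177, 130, 109 and 73.1 CPM in Vehicle 1 to 5. It stood at 185, 341, 267, 63.2 and 126 CPM in GW2580 1 to 5. The groups overlapped over most of their range, with coefficients of variation of 48.6% and 56.2%, and the log2 fold change of 0.38 ± 0.47 did not pass (adjusted p = 0.716 by edgeR's quasi-likelihood test, exact permutation p = 0.571). Genes of its length class had a median of -0.54.

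The iron regulatory proteins were not called. Ireb2 stood at 12.4 to 20.6 CPM in Vehicle 1 to 4, 32.0 CPM in Vehicle 5 and 15.4 to 40.9 CPM with GW2580 (log2 fold change 0.54 ± 0.36, adjusted p = 0.482 by edgeR's quasi-likelihood test, exact permutation p = 0.167). Aco1, whose protein is an aconitase when it holds an iron-sulfur cluster, stood at 20.4, 19.2, 22.8, 18.4 and 103 CPM in Vehicle 1 to 5. It stood at 49.4, 28.1, 74.8, 48.2 and 16.3 CPM in GW2580 1 to 5. Vehicle 5 exceeded every other library, and 4 of the 5 GW2580 libraries exceeded Vehicle 1 to 4 (log2 fold change 0.24 ± 0.54, adjusted p = 0.858 by edgeR's quasi-likelihood test, exact permutation p = 0.460). Without Vehicle 5, Aco1 was past the thresholds with a log2 fold change of 1.10 (edgeR unadjusted p = 0.0102), and without GW2580 3 its sign turned to -0.05.

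Per base of gene length, the vehicle means ran from Ftl1 (16284 ± 7309 RPKM, which is CPM per 1000 bases) and Fth1 (7287 ± 4942) through Hmox1 (95.5 ± 46.5), Slc11a1 (76.6 ± 14.5), Slc40a1 (23.9 ± 2.17), Aco1 (8.51 ± 8.57), Slc11a2 (4.26 ± 2.31), Ireb2 (2.24 ± 0.933) and Tfrc (1.98 ± 0.284) to Cp (1.38 ± 0.211, SD, n = 5 each). The vehicle ranges of neighbours in this order overlapped, except between Fth1 and Hmox1, between Slc11a1 and Slc40a1 and between Tfrc and Cp.

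In bulk RNA, fewer cells of a type and less RNA per cell cannot be told apart. Female and male mice were compared through the interaction of sex with treatment. For this term 0 members passed an unadjusted threshold of 0.05, with edgeR's quasi-likelihood model and with DESeq2 alike, against 2.52% of all genes with edgeR. The smallest value among the members was that of Ireb2 (interaction of 1.08 ± 0.74 on the log2 scale, unadjusted p = 0.170 and adjusted p = 1.00 by edgeR's quasi-likelihood test). With 2 male mice per group this comparison has little precision.

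Genes whose levels followed the members most closely over the 10 libraries were found among 7572 genes of mean CPM 20 or more, by the root mean square difference of centred log2 CPM. Nearest to Fth1 were Mea1 (0.217, 1713 bases), Ramp1 (0.227, 6927 bases) and Aamdc (0.242, 1043 bases), where the spread of Fth1 itself was 1.196. Nearest to Ftl1 were Rnaset2a (0.107), Mthfs (0.162) and Card19 (0.194), all between 866 and 1163 bases long. Nearest to Slc40a1 were Pros1 (0.0997), Il13ra1 (0.107) and Rasa4 (0.138), all between 3399 and 3717 bases long. Among the members, the closest pairs were Tfrc with Ireb2 (0.305), Slc40a1 with Slc11a1 (0.324), Tfrc with Cp (0.358) and Slc11a2 with Ireb2 (0.364), followed by Fth1 with Ftl1 (0.419).

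The wider pathway was described through 80 other iron and heme genes in 6 lists chosen by role, of which 78 passed the filter and Hamp2 and Fdx2 did not. Of the 78, 13 were called lower (16.7%, against 6.7% of all genes) and 0 higher. At an unadjusted p under 0.05, 15 were lower and 3 higher, against 8.12% and 6.61% of all genes. By edgeR's quasi-likelihood test 0 passed an adjusted p of 0.05. By DESeq2 on the filtered genes 3 did, Glrx5 and Cisd1 among them, as did 177 of all 27592 genes tested. The median log2 fold change of the 78 was -0.35. Groups that did not overlap were found for 6 genes lower and 1 higher, against 0.985% and 2.04% of all genes.

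Mitochondrial iron and iron-sulfur cluster genes held most of these calls. Of 27 tested, 8 were called lower (29.6%, against 6.7% of all genes) and 0 higher, 20 had a negative log2 fold change, and the median was -0.65. Cisd1, an iron-sulfur protein of the outer mitochondrial membrane, stood at 59.3 to 137 CPM with vehicle and 12.5 to 49.3 CPM with GW2580 (log2 fold change -1.69 ± 0.41, adjusted p = 0.280 by edgeR's quasi-likelihood test, exact permutation p = 0.00794). Glrx5, a glutaredoxin that passes clusters on, stood at 71.5 to 155 CPM and 11.5 to 49.6 CPM (log2 fold change -1.57 ± 0.43). For 6 genes of the list, among them Cisd1, Glrx5, Isca2 (-1.25), Lyrm4 (-1.02) and Fdx1 (-1.01), all 5 GW2580 libraries lay below all 5 vehicle libraries (0.985% of all genes), although for Lyrm4 Vehicle 5 (7.75 CPM) and GW2580 5 (7.58 CPM) nearly met. Iscu, the scaffold on which clusters form and the most abundant gene of the list, was called lower with overlapping groups (vehicle 350 ± 116 CPM, GW2580 157 ± 82.8 CPM, SD, n = 5 each, log2 fold change -1.15 ± 0.45). Bola3 (-1.09), which also carries the hairpin pattern in the 3′ UTR, was also called lower. The median length of the list was 2110 bases. Cisd1 (965 bases) and Isca2 (908 bases) fall in the class with a median of -1.01, and Glrx5 (1002 bases) falls just inside the class with a median of -0.54. The part of length in these results was not tested. Leaving out Vehicle 2 or GW2580 1 left 4 of the 27 called lower, with Glrx5, Isca2 and Cisd1 among them, and leaving out GW2580 4 left 5. Leaving out GW2580 5 gave 13. With library sizes alone 4 were called lower, with upper quartile scaling 5, and with the percentage of fragments on no exon added 4. Without GW2580 3 and GW2580 4 the count was 3, and without Vehicle 5 and GW2580 5 it was 12. Of all genes, 1295 of 27791 were called lower without Vehicle 2 and 1087 of 27723 without GW2580 1. It was 1637 of 27522 without GW2580 4 and 3637 of 27585 without GW2580 5. Of 28419 genes, 875 were called lower with library sizes alone, 1230 with upper quartile scaling and 813 with the percentage on no exon. It was 715 of 27401 without GW2580 3 and GW2580 4, and 4129 of 27215 without Vehicle 5 and GW2580 5.

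**Figure D4:**
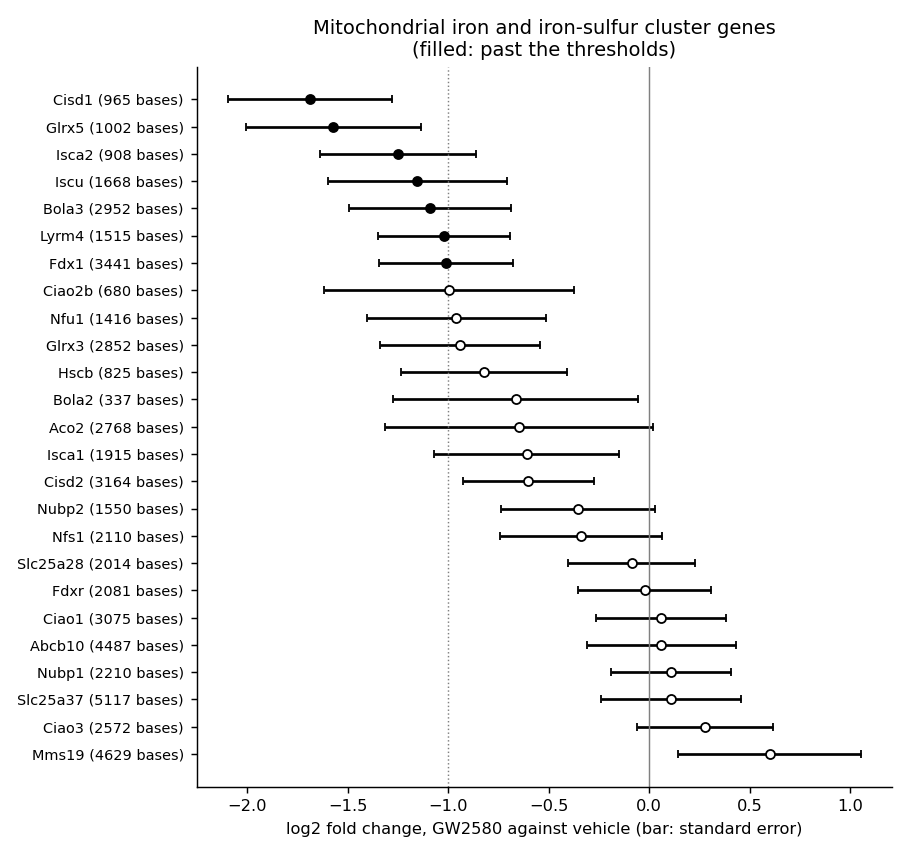
Log2 fold change with standard error of 25 of the 27 tested mitochondrial iron and iron-sulfur cluster genes, gene length in parentheses, filled where the gene was past the thresholds and with a dotted line at 2-fold. The 7 called genes shown lie between -1.01 and -1.69, and the highest value shown, that of Mms19, is 0.60.

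Heme handling showed single calls. Of 13 genes of heme uptake, breakdown and export, Blvrb, a biliverdin reductase, was called lower (vehicle 68.4 ± 17.3 CPM, GW2580 29.7 ± 18.1 CPM, SD, n = 5 each, log2 fold change -1.20 ± 0.46, adjusted p = 0.281 by edgeR's quasi-likelihood test). Blvrb (998 bases) falls in the length class with a median of -1.01, of which 31.7% were called lower. The part of length in this call was not tested. Bach1, a repressor of Hmox1 and ferritin genes, stood at 10.4 to 27.9 CPM with vehicle and 28.0 to 60.6 CPM with GW2580. Its groups did not overlap, and its log2 fold change of 0.77 ± 0.34 was under the fold threshold (exact permutation p = 0.00794). Flvcr1, a heme exporter, was higher at an unadjusted p of 0.0385 by edgeR's quasi-likelihood test (log2 fold change 0.79 ± 0.35). Lrp1, the most abundant gene of this list, had a log2 fold change of -0.08. Of 10 heme synthesis genes, Alad was called lower (log2 fold change -1.20 ± 0.49), and it was highest in Vehicle 5 at 129 CPM. Alas1, the most abundant, stood at -0.08, and Alas2, which carries the hairpin pattern in its 5′ UTR, at -1.68 ± 1.35 (adjusted p = 0.567 by edgeR's quasi-likelihood test). The Alas2 medians ran the other way, 1.95 CPM for the vehicle libraries and 7.78 CPM for the GW2580 libraries. The vehicle mean of 51.4 ± 111 CPM (SD, n = 5) was far above its median, so the negative value rested on uneven vehicle libraries.

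Of 14 genes of iron uptake and reduction, Slc22a17, a receptor for siderophore-binding lipocalin, was called lower through Vehicle 5 alone, which held 3889 CPM against 75.2 to 123 CPM in the other vehicle libraries and 64.1 to 260 CPM with GW2580 (exact permutation p = 0.794). Slc39a8, a zinc and iron importer, stood at 10.5 to 21.3 CPM with vehicle and 17.6 to 39.8 CPM with GW2580 (log2 fold change 0.84 ± 0.31, under the fold threshold, adjusted p = 0.280 by edgeR's quasi-likelihood test). Trf, transferrin, was the most abundant gene of this list and did not pass (log2 fold change 0.22 ± 0.47). Of 8 tested genes of iron export and systemic control, Bmp6 and Tmprss6 were called lower. Bmp6 rested on Vehicle 5 (256 CPM against 6.64 to 10.3 CPM in the other vehicle libraries), and Tmprss6 was low throughout (vehicle 4.07 ± 2.19 CPM, GW2580 1.80 ± 1.17 CPM, SD, n = 5 each). App, the most abundant gene of that list, did not pass (log2 fold change -0.64 ± 0.75). Vehicle 5 held 933 CPM of App, Vehicle 1 to 4 held 60.5 to 89.9 CPM, and the GW2580 libraries 69.9 to 297 CPM. The App medians ran against the sign of this fold change, 80.0 CPM for the vehicle libraries and 133 CPM for the GW2580 libraries. Of 6 genes of ferritin turnover and iron chaperones, 0 were called, and 0 reached an unadjusted p of 0.05 in edgeR's quasi-likelihood model. The list includes Ncoa4, the receptor that delivers ferritin to lysosomes (log2 fold change 0.66 ± 0.37), and Pcbp1, the chaperone that loads ferritin and the most abundant of them (0.15 ± 0.37).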

How the data were processed

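RNA of CD11b-selected brain microglia was sequenced in 10 libraries, 1 per mouse, grouped by the sample labels. After trimming, the authors mapped the reads to GRCm38 using STAR, and featureCounts (1.6.3 per the file headers) counted the uniquely mapped fragments of each RefSeq gene on either strand. The deposited values are raw counts that were not normalized. From these counts, genes over 1 CPM in at least 3 libraries (28419) were scaled by TMM and tested with edgeR 4.0.16 (quasi-likelihood F test, treatment as the only term) in R 4.3.3, with Benjamini-Hochberg adjustment over all genes tested. The standard error was the log2 fold change divided by the square root of F. DESeq2 1.42.0 and limma 3.58.1 served as alternatives. Single values were tested by two-sided exact permutation over the 252 arrangements of the libraries (Python 3.11.15, scipy 1.17.1) on log2 CPM with a prior count of 2.

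The fit was also run on simulated counts with known fold changes. Those counts varied independently from gene to gene, without differences in cell content between libraries. That run therefore does not bear on such differences here. The members, the gene lists and the alternatives were chosen with earlier results of these data known. Named were all members, in each role list the genes called and the most abundant, the 3 closest genes of each ferritin subunit and of each called member, and in each marker list the most abundant gene and those at 0. The genes at an unadjusted p under 0.05 but not called, Ncoa4, Alas2 and Mms19 were named after their values were seen. Some genes that this rule covers are not reported here singly and stay in all counts. Symbols matched 46029 of 46152 gene identifiers. Every pair of libraries differed beyond sampling noise (lowest chi-square per gene 6.86). The smallest library, at 12550418 assigned fragments, limits the precision of low counts. The edgeR and DESeq2 p-values use the spread between mice together with counting error.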

Additional observations from a re-analysis of the deposited data

Results flagged for a closer look

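Over the 10 members and both ratios, each group of 5 libraries was tested for a library far from the rest by Dixon's test, 24 groups in all, of which chance would flag about 1 in 20. In 3 groups a library lay apart, and in each it was Vehicle 5. Ftl1 stood at 3560 CPM in Vehicle 5, with a gap to the next vehicle library of 0.725 of the whole vehicle range. Slc11a2 stood at 55.2 CPM in Vehicle 5, with a gap of 0.955 of the range. Aco1 stood at 103 CPM in Vehicle 5, with a gap of 0.948 of the range. The same library held 27631 CPM of choroid plexus markers and 2144 CPM of erythroid markers, and their part in these values was not tested.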

How the results depend on the processing

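Of 27 alternatives, the direction of Fth1, Ftl1, Slc40a1, Hmox1, Tfrc, Slc11a1, Slc11a2, Ireb2 and Cp was kept in all, and Fth1 stayed past the thresholds in all. The log2 fold change of Aco1 turned to -0.21 without GW2580 3 and GW2580 4 and was -0.0476 to 1.10 when single libraries were left out. Of the members, 2 were called in the main analysis, 0 at an adjusted p under 0.05, 4 with library sizes alone, 4 without Vehicle 5 and GW2580 5, 1 without GW2580 3 and GW2580 4, and 1 (without GW2580 3) to 4 (without Vehicle 5) when single libraries were left out. Vehicle 5 and GW2580 5 each sit with the other group on the first principal component, so leaving out both removes libraries by their own values. In that setting 5 members passed an adjusted p of 0.05 (Fth1, Slc40a1, Tfrc, Ireb2 and Aco1), and 4844 genes did. Of the other iron and heme genes, 13 were called, 0 at an adjusted p under 0.05, 7 with the percentage of fragments on no exon added, 20 without Vehicle 5 and GW2580 5, 3 without GW2580 3 and GW2580 4, and 5 (without GW2580 1) to 18 (without GW2580 5) when single libraries were left out. Without GW2580 4 the count was 6 and without Vehicle 2 it was 8. Over all genes, 1928 were called higher and 4129 lower of 27215 tested without Vehicle 5 and GW2580 5. These were 470 and 715 of 27401 without GW2580 3 and GW2580 4, and 917 and 813 of 28419 with the percentage on no exon. They were 597 and 1087 of 27723 without GW2580 1, and 1211 and 3637 of 27585 without GW2580 5. They were 1005 and 1310 of 28358 without GW2580 3, and 1739 and 1894 of 28120 without Vehicle 5. The Fth1 to Ftl1 difference turned to 0.0052 without Vehicle 2 and Vehicle 5 and ranged from -0.501 to -0.226 when single libraries were left out. The Tfrc to Fth1 difference was 2.11 without GW2580 3 and GW2580 4 (exact permutation p = 0.107) and 2.13 to 2.91 when single libraries were left out. With sex by treatment, 0 members passed in every alternative. The causes were not tested. Library sizes alone moved the median of all genes from -0.03 to 0.23.

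Whether the replicate numbers pair the libraries was not tested. Between libraries of the same number, deviations from the group means correlated at -0.05, 0.39, 0.09, -0.44 and -0.57 for numbers 1 to 5. These have no values for libraries of different numbers beside them, so they do not decide it. With the replicate block 1 member (Fth1) and 9 other iron genes were called, and the Tfrc to Fth1 difference of 2.49 had an exact sign-flip permutation p of 0.125, where the smallest that 5 pairs allow is 0.0625, so this test could not pass 0.05. Slc40a1 stood at a log2 fold change of 0.85 with the block, past neither threshold.

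Counts of 110 to 545 per library limit Tfrc and Cp, and the number of mice limits every test.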

Other observations

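Hmox1 varied widely between libraries within both groups. The genes closest to it over the 10 libraries, named after their values were seen, were Atf3 (root mean square difference 0.260 on the log2 scale, where the spread of Hmox1 was 0.764), Klf6 (0.265) and Ceacam1 (0.301). Their log2 fold changes were 0.45, 0.30 and 0.09.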
